A study of Mus musculus with 4 samples.

Results

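The enzymes and regulators of sterol and fatty acid synthesis were followed in macrophages sorted from mouse liver tumours. The genes were taken by symbol from a fixed list of 34, and 34 of the 34 were found among the 24784 genes of the table. They comprised 18 enzymes of the sterol branch, 11 enzymes of the fatty acid branch and 5 regulators that act on both. The animals were labelled OXCT1mKO, a genotype named for Oxct1, which encodes the mitochondrial enzyme that activates acetoacetate in ketone body breakdown. They were set against animals labelled control. Each group had 2 libraries of polyadenylated RNA. Both groups were male, aged 6 to 8 weeks, and had been treated with the mouse hepatoma line Hepa 1-6 by a route the labels write as i.pv., and the cells are labelled tumor associated macrophages from liver tumor. The labels do not say in which cells or by which promoter Oxct1 was deleted, nor how many mice stand behind a library.

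Cholesterol is built from acetyl-CoA through mevalonate, isoprenoid pyrophosphates, squalene and lanosterol, and fatty acids are built from the same acetyl-CoA through malonyl-CoA. Both branches are controlled by sterol regulatory element-binding proteins (SREBPs), membrane-bound transcription factors. SCAP escorts them from the endoplasmic reticulum to the Golgi, where proteases release their active part, and INSIG proteins hold them back when sterol is abundant. SREBP2 acts mainly on sterol genes and SREBP1 mainly on fatty acid genes. In macrophages these pathways supply membrane lipids and ligands of the liver X receptors, and they are remodelled during activation.

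Of the 34 members, 33 had a mean level of at least 1 RPKM (reads per kilobase of transcript, scaled to the size of the library) and were tested; Acacb fell under that limit. Relative to control, 4 of the 33 rose in OXCT1mKO, namely Srebf2, Insig1, Pmvk and Elovl5, by limma with an adjusted p under 0.05. None fell by that test, although 2, Sqle and Fdps, had an unadjusted p under 0.05 downward. That is 12.1% of the tested members, whereas 32.8% of all 12523 tested genes passed, 16.4% upward (2058) and 16.4% downward (2052). That split was 2718 up and 1478 down with equal RPKM sums without globin, and 1789 up and 2580 down with each library centred on its median. The median size of the log2 fold change, whatever its sign, was 0.15 over the members and 0.33 over all tested genes. A log2 fold change over 0.5 in size was seen for 2 members, Elovl5 and Insig1, or 6.06% of those tested, against 31.9% of all tested genes.

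The promoters of the 4 members that rose are shown first, with that of Hmgcs1, a textbook SREBP target, because these genes are set against the SREBP system in what follows. Each is the 250 bases before the most upstream RefSeq start on GRCm38.p6, on the strand of the gene. The GENCODE starts of Insig1 and Srebf2 lie inside these windows, and that of Elovl5 is the last base of its window. Capitals mark matches on either strand to the sterol regulatory element TCACNCCAC, the E-box CACGTG, the CCAAT box CCAAT and the GC box GGGCGG.
Srebf2 (chr15:82147019-82147268, plus strand): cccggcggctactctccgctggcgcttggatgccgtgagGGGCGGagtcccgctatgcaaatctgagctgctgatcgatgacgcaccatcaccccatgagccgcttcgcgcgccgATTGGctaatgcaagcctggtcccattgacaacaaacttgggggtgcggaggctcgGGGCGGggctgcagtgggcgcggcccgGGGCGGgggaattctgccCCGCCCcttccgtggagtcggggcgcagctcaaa
Insig1 (chr5:28071162-28071411, plus strand): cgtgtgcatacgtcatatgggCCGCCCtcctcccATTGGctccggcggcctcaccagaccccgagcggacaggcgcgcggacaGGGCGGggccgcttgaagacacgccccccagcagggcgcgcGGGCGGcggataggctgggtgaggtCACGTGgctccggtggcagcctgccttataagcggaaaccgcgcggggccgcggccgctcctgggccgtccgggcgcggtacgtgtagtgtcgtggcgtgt
Pmvk (chr3:89454291-89454540, plus strand): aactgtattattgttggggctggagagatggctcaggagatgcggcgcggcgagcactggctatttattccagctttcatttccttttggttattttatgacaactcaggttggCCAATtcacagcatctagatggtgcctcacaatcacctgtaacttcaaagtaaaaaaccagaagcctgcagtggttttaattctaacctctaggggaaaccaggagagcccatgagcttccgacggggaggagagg
Elovl5 (chr9:77917115-77917364, plus strand): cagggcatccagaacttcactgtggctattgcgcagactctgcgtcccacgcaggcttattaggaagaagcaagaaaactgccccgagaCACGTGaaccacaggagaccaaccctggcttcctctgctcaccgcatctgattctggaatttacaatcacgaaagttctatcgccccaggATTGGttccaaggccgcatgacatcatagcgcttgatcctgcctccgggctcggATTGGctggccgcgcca
Hmgcs1 (chr13:119690101-119690350, plus strand): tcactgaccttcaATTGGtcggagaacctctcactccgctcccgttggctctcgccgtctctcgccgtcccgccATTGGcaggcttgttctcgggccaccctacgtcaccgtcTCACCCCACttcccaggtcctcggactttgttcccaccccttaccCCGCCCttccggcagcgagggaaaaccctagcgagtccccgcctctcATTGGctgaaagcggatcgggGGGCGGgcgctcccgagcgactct

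RefSeq promoters were matched for 28 of the 34 members. Those of Fads1, Scd1, Scd2, Fdft1, Fdps and Sqle were not available and were not searched. A CCAAT box, the site of the factor NF-Y that works beside SREBPs, lay in 13 of 15 sterol branch promoters, 4 of 8 fatty acid branch promoters and 4 of 5 regulator promoters. It lay in 34.5% of all 27025 promoters and in 36.5% of those of protein-coding genes. A GC box, bound by Sp1, lay in 14 of 15 sterol branch promoters, 3 of 8 fatty acid branch promoters and 2 of 5 regulator promoters, against 33.0% of all promoters and 42.7% of protein-coding ones. The sterol regulatory element in the spelling searched was found in 1 of the 28, Hmgcs1, and in 1.03% of all promoters. Other spellings of the element were not searched, so a promoter without a match may still hold one. An E-box lay in 4 of the 28 and in 6.04% of all promoters. Among the 4 promoters of members that rose, 4 held a CCAAT box, 2 an E-box and 2 a GC box. These matches describe letters in a window and do not show binding.

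The levels of the members spanned a wide range, and RPKM is scaled per length, so they can be set side by side. Scd2, a stearoyl-CoA desaturase that makes monounsaturated fatty acids, was the most abundant member with a mean of 71.9 RPKM over the 4 libraries. Acly, which cleaves citrate to cytosolic acetyl-CoA, Scd1, the desaturase of liver and fat, and Elovl5, which lengthens polyunsaturated fatty acids, followed at 39.8, 38.9 and 28.7 RPKM. In the sterol branch Fdps, the farnesyl pyrophosphate synthase, was highest at 27.0 RPKM, and Hsd17b7, a sterol ketoreductase, lowest at 1.28 RPKM. The summed level of the sterol branch was 190 and 174 RPKM in OXCT1mKO 1 and 2, against 188 and 184 RPKM in control 1 and 2. That of the fatty acid branch was 272 and 264 RPKM in OXCT1mKO, against 259.76 and 260.31 RPKM in control. The groups overlapped for the sterol sum, while both OXCT1mKO libraries lay above both controls for the fatty acid sum. Elovl5 alone, with means of 34.9 RPKM in OXCT1mKO and 22.5 RPKM in control, rose by more than that sum did.

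**Figure D1:**
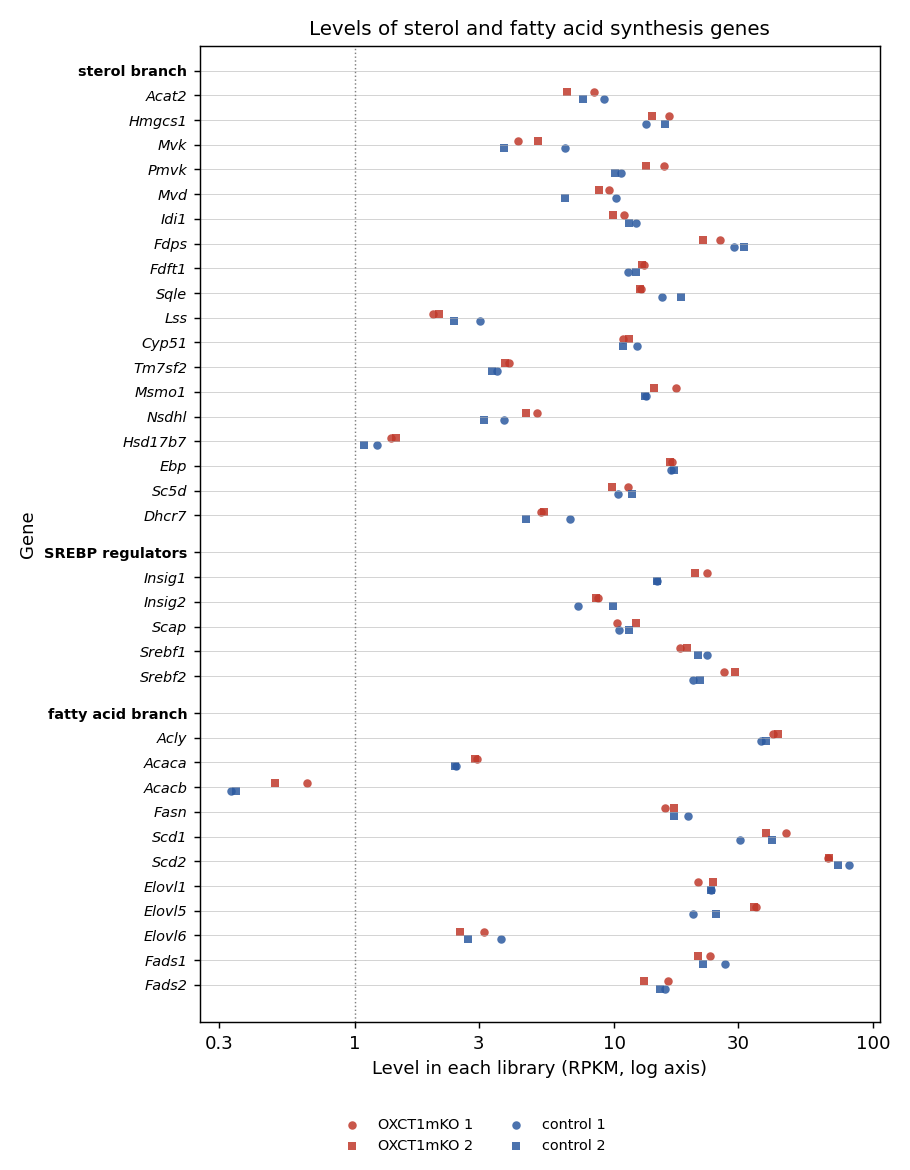
Level of each member in each library (RPKM, log axis), with OXCT1mKO libraries in red above control libraries in blue and the dotted line at the 1 RPKM limit for testing. Levels run from Acacb, with a mean of 0.455 RPKM, to Scd2 at 71.9 RPKM, and for most members the 4 points lie close together.

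The sorted samples held transcripts of other cells, and these differed between the groups. Oxct1 itself was 14.7 and 15.4 RPKM in OXCT1mKO and 19.3 and 20.3 RPKM in control. It fell by 0.37 ± 0.09 (SE) in log2 terms (limma adjusted p 0.0346), and a value over the whole gene cannot show a missing exon. The call was lost with equal RPKM sums without globin (-0.28, adjusted p 0.0627), with no filter on low values (0.0504), without control 2 (0.0559), without OXCT1mKO 1 (0.225) and without OXCT1mKO 2 (0.162). The marker counts below stand beside all tested genes, of which 16.4% rose, 16.4% fell and 74.7% did not overlap between the groups. At an unadjusted p under 0.05 by limma, 3029 of the 12523 were higher and 2971 lower. Of the defining macrophage markers 4 of 8 rose, with a summed level of 1220 to 1333 RPKM in OXCT1mKO and 589.5 to 1139.55 RPKM in control. The 6 Kupffer cell markers summed to 223 to 373 RPKM in OXCT1mKO and 28.3 to 31.0 RPKM in control, and 5 of them rose. Hepatocyte markers, 10 in number, summed to 444 to 698 RPKM in OXCT1mKO and 497 to 595 RPKM in control, with 1 higher and 1 lower. Alb, at a mean of 357 RPKM, made up much of that sum. Of the 10, 8 had a log2 fold change above 0, 6 had both OXCT1mKO libraries above both controls, 4 were higher at an unadjusted p under 0.05, and the median was 1.05. For hepatoma and fetal liver the 6 markers summed to 55.8 to 64.5 RPKM in OXCT1mKO and 141 to 171 RPKM in control, with 3 of 5 tested lower and Dlk1 listed at 0 in 1 library. T cell, cell cycle and pancreas acinar markers were lower in 5 of 6, 5 of 6 and 5 of 5, with sums of 44.0 to 70.2, 137 to 139.87 and 1.98 to 2.31 RPKM in OXCT1mKO and 133 to 197, 197 to 221 and 28.5 to 38.8 RPKM in control. One acinar marker, Try4, was listed at 0 in OXCT1mKO 2. Endothelial markers rose in 4 of 5, with 495 to 557 RPKM in OXCT1mKO and 229.89 to 293 RPKM in control. Neutrophil markers summed to 382 to 565 RPKM in OXCT1mKO and 155 to 1254 RPKM in control, with 1 of 4 tested lower. B cell, epithelial and erythroid markers gave 0 limma calls among 4, 5 and 5, with 0, 1 and 0 at an unadjusted p under 0.05. They summed to 33.3 to 35.7, 678 to 716 and 309 to 329.51 RPKM in OXCT1mKO and to 13.3 to 62.0, 797 to 1239.54 and 846 to 24384 RPKM in control. Globin transcripts made up 0.137% and 0.132% of the RPKM sum in OXCT1mKO 1 and 2, against 8.81% and 0.327% in control 1 and 2, so that control 1 stood apart. Without control 1, 2 of the 4 members that rose still passed (Insig1 and Elovl5), and with equal RPKM sums without globin all 4 did. The part of these cells in the results on lipid synthesis was not tested.

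The regulators were considered first. Srebf2, the gene of SREBP2, lies on chromosome 15 of GRCm38 from 82147181 to 82205379 on the plus strand. It was 26.5 and 29.3 RPKM in OXCT1mKO 1 and 2, against 20.1 and 21.4 RPKM in control 1 and 2. Both OXCT1mKO libraries lay above both controls, with means of 27.9 ± 1.94 and 20.8 ± 0.93 RPKM (SD, n = 2 each). Every log2 fold change given is of RPKM + 1, a scale that shrinks the changes of low genes, and on it Srebf2 rose by 0.41 ± 0.10 (SE; limma adjusted p 0.0350). In these bulk samples, more cells of a type that express a gene and more RNA per cell cannot be told apart.

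Insig1, whose protein retains the SREBPs in the endoplasmic reticulum and whose transcript is a sensitive SREBP target, lies on chromosome 5 from 28071363 to 28078662 on the plus strand. It had 22.9 and 20.4 RPKM in OXCT1mKO and 14.6 and 14.6 RPKM in control. The groups did not overlap, and the controls differed by far less than the OXCT1mKO libraries. The log2 fold change was 0.54 ± 0.10 (limma adjusted p 0.0201). Insig2, its relative with the same retention role, was 8.69 and 8.52 RPKM in OXCT1mKO, between the 7.22 and 9.92 RPKM of control 1 and control 2. Its log2 fold change was 0.019, with a 95% interval from -0.39 to 0.43.

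Srebf1, which encodes SREBP1, had 17.9 and 19.04 RPKM in OXCT1mKO and 22.7 and 21.0 RPKM in control. Both OXCT1mKO libraries were thus below both controls, yet this was no call (-0.23 ± 0.09 in log2, limma adjusted p 0.115). Scap, the escort of the SREBPs, had 10.3 and 12.1 RPKM in OXCT1mKO and 10.5 and 11.4 RPKM in control, and its groups overlapped. The deposited values are per gene, so the SREBP1a and SREBP1c transcripts of Srebf1 were not told apart.

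**Figure D2:**
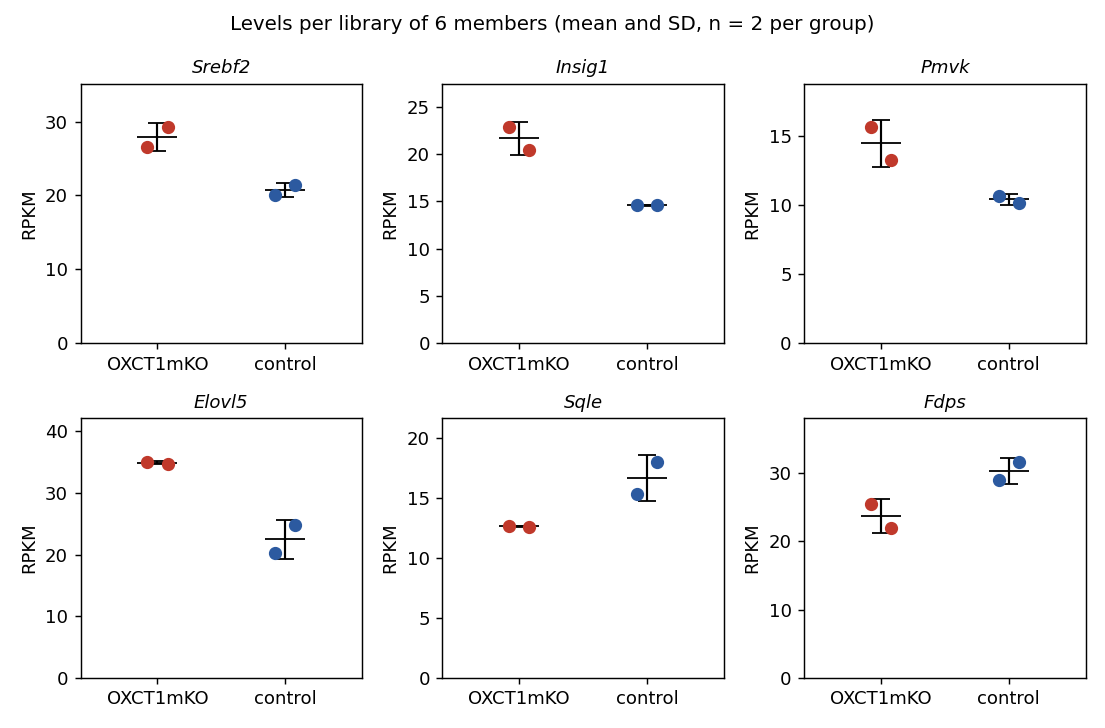
Level in each library (RPKM) of the 4 members that rose and of the 2 with the largest downward fold changes, OXCT1mKO in red and control in blue, with the mean and SD in black (n = 2 per group). Srebf2, Insig1, Pmvk and Elovl5 have both OXCT1mKO points above both control points, whereas Sqle and Fdps have both below but did not pass the adjusted threshold.

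In the sterol branch, 1 of 18 tested enzymes rose, and 0 fell by limma. At an unadjusted p under 0.05, 2 of the 18 were higher and 2 lower, where 3029 of all 12523 tested genes were higher and 2971 lower. The median log2 fold change of the branch was -0.033, against 0.0045 over all genes tested. When the libraries were scaled to equal RPKM sums without globin, it was 0.060, against 0.089 over all genes, so its sign turned. It lay below that of all genes without control 2 (-0.067 against 0.027) and without OXCT1mKO 1 (-0.018 against -0.0075). It lay above without control 1 (0.061 against -0.019) and without OXCT1mKO 2 (0.023 against 0.013). Of the 18 enzymes, 6 had both OXCT1mKO libraries above both controls, 4 had both below and 8 overlapped, whereas 74.7% of all tested genes did not overlap.

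At the entry of the branch stand Acat2, the thiolase that makes acetoacetyl-CoA from acetyl-CoA, and Hmgcs1, the synthase of HMG-CoA. Their log2 fold changes were -0.15 ± 0.15 and 0.057 ± 0.13. Hmgcs1, whose promoter held the sterol regulatory element, was 16.3 and 14.0 RPKM in OXCT1mKO and 13.3 and 15.7 RPKM in control, so that the groups overlapped. Pmvk, the phosphomevalonate kinase, was the enzyme of this branch that passed. It lies on chromosome 3 from 89454541 to 89469013 on the plus strand, and had 15.6 and 13.2 RPKM in OXCT1mKO, against 10.7 and 10.1 RPKM in control. The log2 fold change was 0.43 ± 0.11 (limma adjusted p 0.0440). The enzymes on either side of it in the pathway, the mevalonate kinase Mvk (-0.072 ± 0.24) and the decarboxylase Mvd (0.15 ± 0.21), did not pass. Both of their control libraries were far apart, at 6.45 and 3.76 RPKM for Mvk and 10.2 and 6.47 RPKM for Mvd, with OXCT1mKO between them at 4.26 and 5.10 RPKM and at 9.53 and 8.71 RPKM.

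From isopentenyl pyrophosphate to lanosterol, 0 of the enzymes passed. Fdps had 25.5 and 21.9 RPKM in OXCT1mKO and 29.0 and 31.7 RPKM in control (-0.35 ± 0.11, limma adjusted p 0.0727). Sqle, the squalene epoxidase that is a rate-limiting step of the late pathway, had 12.6 and 12.6 RPKM in OXCT1mKO and 15.3 and 18.0 RPKM in control (-0.37 ± 0.11, limma adjusted p 0.0589). Lss, which closes the sterol rings to form lanosterol, had 2.01 and 2.11 RPKM in OXCT1mKO and 3.04 and 2.42 RPKM in control (-0.28 ± 0.14, limma adjusted p 0.177). In each of these the OXCT1mKO libraries lay below the controls, as they did for the isomerase Idi1 (-0.17 ± 0.10). Fdft1, the squalene synthase, lay the other way at 0.13 ± 0.09. It overlaps Ctsb on the opposite strand, sharing 774 exon bases with that abundant gene (mean 231 RPKM). Groups that did not overlap were common, at 74.7% of all tested genes.

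From lanosterol to cholesterol, 0 of the enzymes passed. Nsdhl, a sterol dehydrogenase, had 5.02 and 4.58 RPKM in OXCT1mKO, against 3.76 and 3.14 RPKM in control (0.38 ± 0.13, limma adjusted p 0.0737). The methylsterol monooxygenase Msmo1 (0.24 ± 0.12) and Hsd17b7 (0.16 ± 0.14) had both OXCT1mKO libraries above both controls as well, and neither passed. The sterol reductase Tm7sf2 did the same at 0.13 ± 0.11. In either direction, the groups did not overlap for 74.7% of all tested genes. The demethylase Cyp51 (-0.048 ± 0.11), the isomerase Ebp (-0.019 ± 0.08), the desaturase Sc5d (-0.057 ± 0.12) and the reductase Dhcr7 (-0.056 ± 0.18) overlapped between the groups. Across the 17 sterol enzymes that did not pass, the 95% intervals reached from -0.70 to 0.71 at their widest, and for Ebp from -0.24 to 0.20. A missed threshold therefore does not show equal levels.

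**Figure D3:**
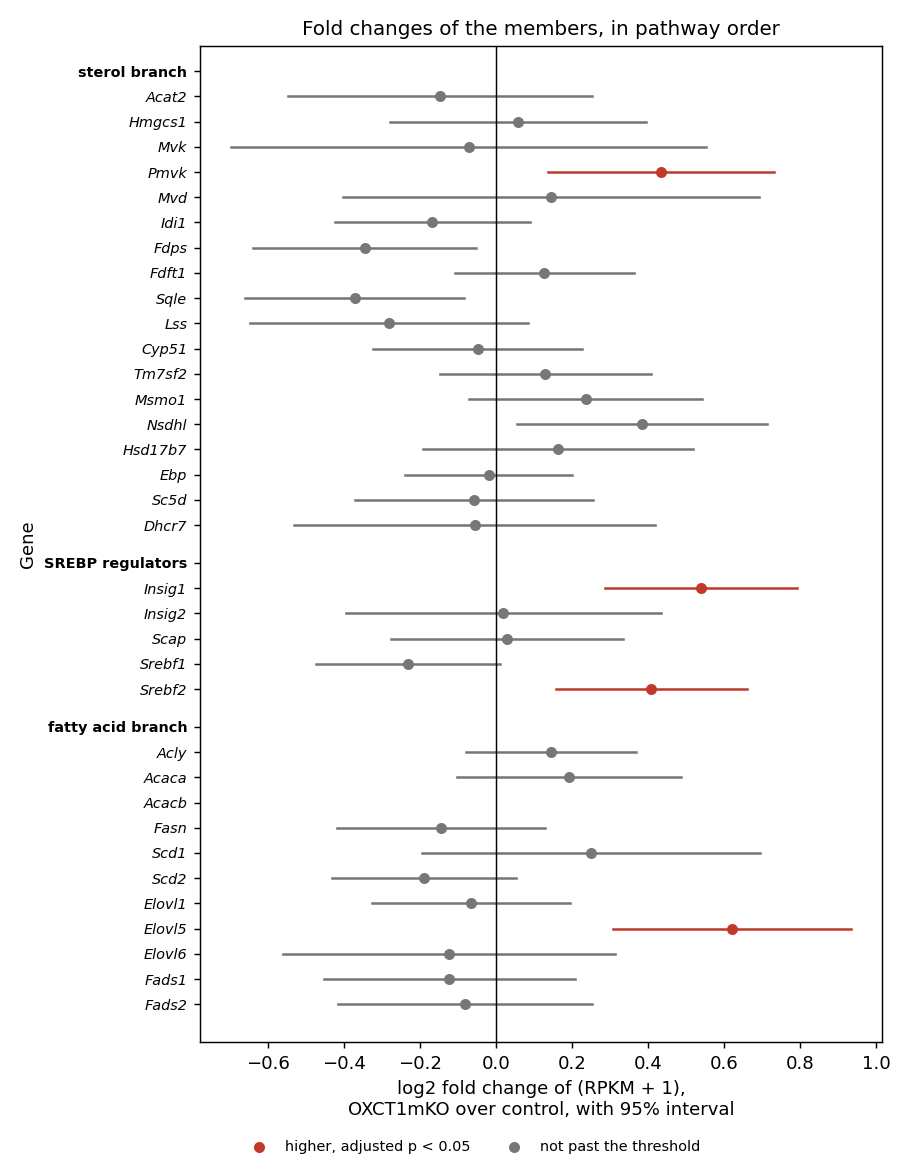
Log2 fold change of each tested member on the log2(RPKM + 1) scale, OXCT1mKO over control, with its 95% interval from limma, in pathway order from the top. Red marks the 4 members that rose, between 0.41 and 0.62, and grey the 29 that did not pass, while Acacb was not tested and has no point.

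In the fatty acid branch, 1 of 10 tested enzymes rose and 0 fell by limma, with 1 higher and 0 lower at an unadjusted p under 0.05. Over all tested genes, 32.8% passed, and 3029 were higher and 2971 lower of 12523 at the unadjusted threshold. The median log2 fold change was -0.074, against 0.0045 over all genes. With equal RPKM sums without globin it was 0.021, against 0.089 over all genes. It lay below that of all genes without control 2 (-0.087 against 0.027) and without OXCT1mKO 1 (-0.032 against -0.0075). It lay above without control 1 (0.022 against -0.019) and without OXCT1mKO 2 (0.030 against 0.013). The median size of the change, whatever its sign, was 0.14 in the fatty acid branch and 0.15 in the sterol branch, against 0.33 over all tested genes. Within a library, the summed sterol branch was 0.697 and 0.659 times the summed fatty acid branch in OXCT1mKO, against 0.725 and 0.708 times in control. Both OXCT1mKO ratios were below both control ratios, a difference of -0.079 on the log2 scale, with an exact permutation p of 0.333 (two-sided), the smallest that 2 libraries against 2 can give. The fatty acid sum includes Elovl5, at 35.1 and 34.8 RPKM in OXCT1mKO and 20.2 and 24.7 RPKM in control. The ratio without Elovl5 was not computed, so the difference cannot be read as a trait of the whole branch.

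Elovl5 had the largest fold change of the 33. The elongase lies on chromosome 9 from 77917364 to 77984519 on the plus strand. It had 35.1 and 34.8 RPKM in OXCT1mKO and 20.2 and 24.7 RPKM in control. The OXCT1mKO libraries were nearly equal and both above the controls, and the log2 fold change was 0.62 ± 0.12 (limma adjusted p 0.0231). The enzymes that act with it on polyunsaturated chains, the desaturases Fads1 (-0.12 ± 0.13) and Fads2 (-0.083 ± 0.13), overlapped between the groups. The other elongases, Elovl1 for saturated chains (-0.066 ± 0.10) and Elovl6 for palmitate (-0.12 ± 0.17), overlapped too.

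The enzymes that make palmitate did not pass. Acly had 40.9 and 42.8 RPKM in OXCT1mKO and 36.8 and 38.7 RPKM in control (0.14 ± 0.09). Acaca, the acetyl-CoA carboxylase of lipogenesis, had 2.97 and 2.91 RPKM in OXCT1mKO, against 2.45 and 2.44 RPKM in control (0.19 ± 0.11). Fasn, the fatty acid synthase, had 15.6 and 17.0 RPKM in OXCT1mKO and 19.3 and 17.0 RPKM in control (-0.14 ± 0.11). Acacb, the carboxylase at the mitochondrial surface that restrains fatty acid oxidation, was untested and low in every library, at 0.651 and 0.491 RPKM in OXCT1mKO and 0.332 and 0.348 RPKM in control. Acly and both carboxylases thus had their OXCT1mKO libraries above the controls, while Fasn had them slightly below. Of the 10 tested enzymes of the branch, 3 had both OXCT1mKO libraries above both controls, 2 had both below and 5 overlapped. Over all tested genes, 74.7% did not overlap.

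Related members were also compared as ratios within a library, which no scaling of whole libraries can alter. The fold changes of the desaturases Scd1 and Scd2 had opposite signs. Neither gene passed (limma adjusted p 0.297 and 0.171), and for Scd1 the groups overlapped. Scd1 had 46.1 and 38.5 RPKM in OXCT1mKO and 30.6 and 40.6 RPKM in control (0.25 ± 0.17), and Scd2 had 66.8 and 67.3 RPKM in OXCT1mKO and 80.4 and 72.9 RPKM in control (-0.19 ± 0.09). The ratio of Scd1 to Scd2 was 0.689 and 0.572 in OXCT1mKO, against 0.380 and 0.556 in control. Its groups were separated by little, because OXCT1mKO 2 and control 2 lay close together.

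The ratio of Srebf1 to Srebf2 separated the groups by more. It was 0.676 and 0.650 in OXCT1mKO, against 1.13 and 0.981 in control, a difference of -0.67 on the log2 scale. The ratio of Insig1 to Insig2 was 2.64 and 2.40 in OXCT1mKO and 2.02 and 1.47 in control (0.55 on the log2 scale). That of Acaca to Acacb was 4.56 and 5.92 in OXCT1mKO and 7.38 and 7.03 in control (-0.47), and it rests on a low denominator. Leaving out 1 library moved several of these log2 differences by over 1.5 times. That of Scd1 to Scd2, 0.45 over the 4 libraries, was 0.18 without control 1 and 0.72 without control 2. That of Insig1 to Insig2 was 0.32 without control 2, and that of Acaca to Acacb was -0.28 without OXCT1mKO 1. The branch difference was -0.038 without OXCT1mKO 2 and -0.12 without OXCT1mKO 1, while Srebf1 to Srebf2 stayed between -0.77 and -0.57 over the 4 libraries left out in turn. With the branch ratio, 5 ratios were computed, and each of the 5 gave the exact permutation p of 0.333 that is the floor of this design, before and after adjustment over them.

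**Figure D4:**
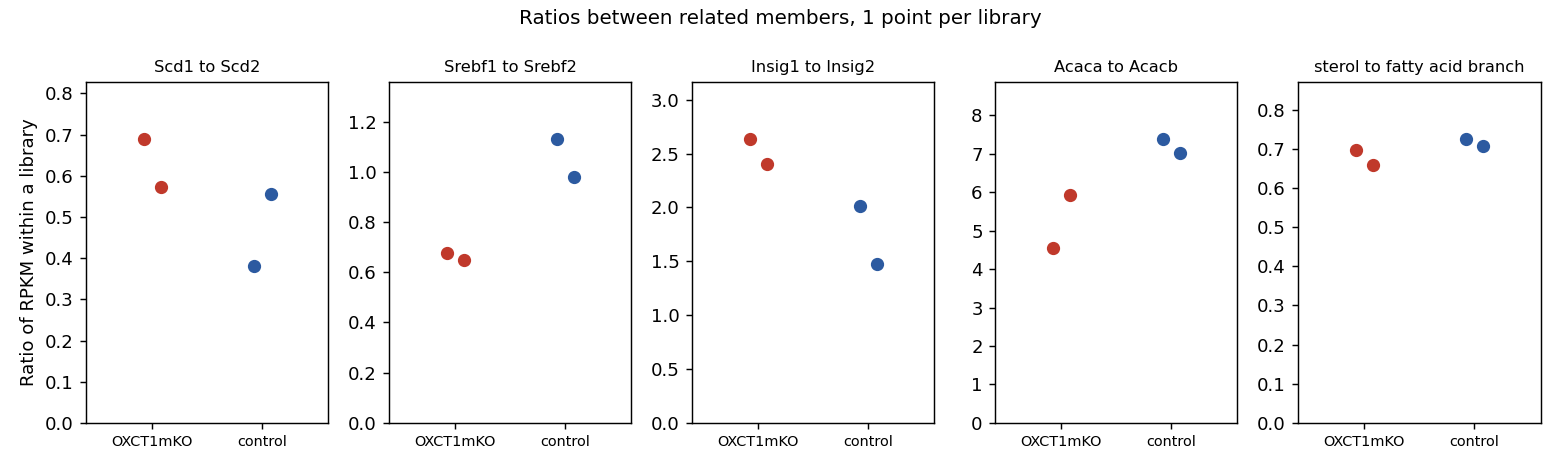
Ratio of RPKM values within a library for 4 pairs of related members and for the summed sterol over the summed fatty acid branch, with 1 point per library, OXCT1mKO in red at the left and control in blue. The Srebf1 to Srebf2 ratio is 0.676 and 0.650 in OXCT1mKO and 1.13 and 0.981 in control, and the branch ratio stays between 0.659 and 0.725 in the 4 libraries.

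Of 44 neighbouring genes of the pathway, 38 were tested, and 3 rose and 6 fell. That is 23.7%, again against 32.8% of all tested genes. Among the regulators, 2 of 11 rose. Thrsp, the lipogenic protein Spot 14, had 9.95 and 8.83 RPKM in OXCT1mKO and 3.99 and 2.22 RPKM in control (1.37 ± 0.23, limma adjusted p 0.0177). Its partner Mid1ip1 had 18.4 and 16.0 RPKM in OXCT1mKO and 21.4 and 23.1 RPKM in control, and did not pass (limma adjusted p 0.0594). Erlin1, a membrane protein that takes part in SREBP and INSIG control, had 10.7 and 11.2 RPKM in OXCT1mKO and 7.94 and 8.16 RPKM in control (0.40 ± 0.09, limma adjusted p 0.0326). The liver X receptor genes Nr1h3 (0.96 ± 0.42) and Nr1h2 (0.11 ± 0.08) and the SREBP protease genes Mbtps1 and Mbtps2 did not pass.

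Of the 8 genes that supply acetyl-CoA, acyl-CoA and NADPH, 3 fell and 0 rose. Over all tested genes, 32.8% passed in either direction and 16.4% fell, against 37.5% passing here. Me1, the cytosolic malic enzyme that makes NADPH for lipid synthesis, had 3.69 and 2.94 RPKM in OXCT1mKO and 7.69 and 8.42 RPKM in control (-1.07 ± 0.13, limma adjusted p 0.0127). Slc25a1, the mitochondrial citrate carrier (-0.35 ± 0.09), and Acsl3, an acyl-CoA synthetase (-0.40 ± 0.11), fell less, with limma adjusted p of 0.0394 and 0.0472. Both calls were lost with no filter on low values (0.0530 and 0.0863), with equal RPKM sums without globin (0.0817 and 0.0778), without a variance trend (0.0556 and 0.0521) and with each of the 4 libraries left out. Aacs, which activates acetoacetate in the cytosol for lipid synthesis, had 12.5 and 12.3 RPKM in OXCT1mKO and 16.1 and 14.6 RPKM in control, and did not pass (-0.29 ± 0.10, limma adjusted p 0.0761). Acss2, which makes acetyl-CoA from acetate, had 3.52 and 2.97 RPKM in OXCT1mKO and 2.16 and 2.12 RPKM in control, and did not pass either (0.43 ± 0.13, limma adjusted p 0.0588).

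Of 8 tested partners in elongation and desaturation, 2 fell and 0 rose, or 25%, against 32.8% of all tested genes that passed. These complete the cycle that Elovl enzymes begin. Tecr, the enoyl-CoA reductase of the cycle, had 36.7 and 38.3 RPKM in OXCT1mKO and 50.5 and 54.4 RPKM in control (-0.47 ± 0.09, limma adjusted p 0.0216). Hacd2, a dehydratase, had 4.56 and 4.08 RPKM in OXCT1mKO and 6.07 and 6.87 RPKM in control (-0.49 ± 0.12, limma adjusted p 0.0359). The elongase that rose, Elovl5, thus stood beside a reductase and a dehydratase that were lower in the same libraries. The other 6 tested partners, which include further enzymes of the cycle, did not pass.

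Among 11 tested genes for the fates of the products, 1 rose and 1 fell, or 18.2%, against 32.8% of all tested genes that passed. Cyp27a1, the sterol 27-hydroxylase that makes a ligand of the liver X receptors, had 18.6 and 15.8 RPKM in OXCT1mKO and 7.96 and 6.65 RPKM in control (1.13 ± 0.13, limma adjusted p 0.0127). Tmem97, the sigma-2 receptor and a sterol-responsive membrane protein, had 10.9 and 12.5 RPKM in OXCT1mKO and 30.5 and 21.1 RPKM in control (-1.06 ± 0.19, limma adjusted p 0.0201).

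**Figure D5:**
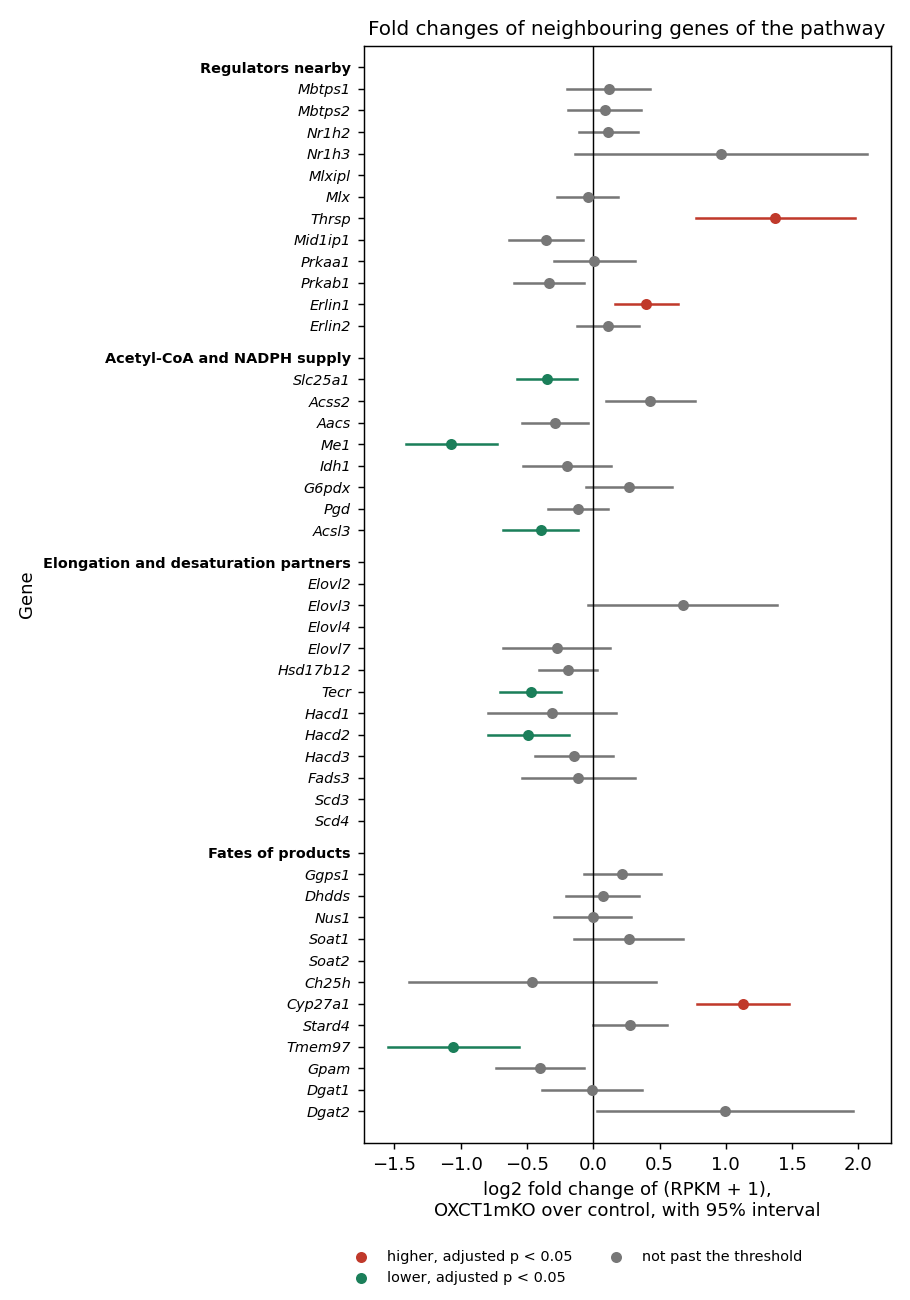
Log2 fold change of the 38 tested neighbouring genes on the log2(RPKM + 1) scale, OXCT1mKO over control, with 95% intervals from limma. Red marks the 3 that rose, Thrsp, Erlin1 and Cyp27a1, and green the 6 that fell, with Me1 at -1.07 and Tmem97 at -1.06, while 6 genes with a mean under 1 RPKM have no point.

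The calls rest on both OXCT1mKO libraries. Of the 4 members and 9 neighbours called, 0 passed when OXCT1mKO 1 was left out and 0 when OXCT1mKO 2 was, in fits that assume the lone library varies like the controls. Over all tested genes, 0 were then higher and 1 lower without OXCT1mKO 1, and 9 higher and 1 lower without OXCT1mKO 2. The log2 fold changes then ranged from 0.46 to 0.62 for Insig1, from 0.48 to 0.76 for Elovl5, from 0.34 to 0.48 for Srebf2 and from 0.32 to 0.55 for Pmvk over the 4 libraries left out in turn. Pmvk passed in 0 of these 4 fits, Srebf2 in 1, and Insig1 and Elovl5 in 2 each. With no filter on low values the limma adjusted p became 0.0781 for Pmvk, 0.0562 for Srebf2 and 0.0501 for Elovl5. With each library centred on its median it became 0.0584 for Pmvk and 0.0519 for Srebf2, and without a variance trend it became 0.0539 for Pmvk. Among the neighbours, it became 0.0546 for Erlin1, 0.0777 for Hacd2 and 0.0522 for Tmem97 with no filter, 0.0589 for Erlin1 without control 1 and 0.0705 for Hacd2 without control 2.

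Some members share sequence with other genes, so that the counting of their reads is uncertain. Acat2 shares 1477 of 2250 transcript bases with its copy Acat3 at an identity of 95% or more, and 445 with Tcp1. Fdps shares 1128 of 1382 with the overlapping Gm43738, and Acaca 6117 of 9513 with Gm5182. Scd2 shares 623 of 5455 with Scd1. The 4 members that rose shared little by this measure. Insig1 shared 189 of 2697 bases with Gm37784, and Srebf2, Pmvk and Elovl5 shared no stretch of 100 bases or more.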

How the data were processed

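Polyadenylated RNA of 4 samples was sequenced, and titles gave group and replicate number. The authors deposited 1 table of RPKM values per gene symbol. The submitters' processing notes name build mm10, STAR 2.10 and R 4.0.5. No source used here gives the counter, strand setting, annotation or library size definition. The protocol in the labels names a microarray, although the series type is sequencing. RPKM values allow no count model, and depth is unknown. The RPKM sums were 327811 and 325034 in OXCT1mKO and 377575 and 355951 in control.

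Genes whose mean reached 1 RPKM were fitted, as log2(RPKM + 1), with limma 3.58.1 in R 4.3.3 (group term, variance trend, two-sided, Benjamini-Hochberg adjustment over 12523 genes, threshold 0.05). The fit was tested on simulated data with independent normal noise in each gene, which cannot show that its assumptions hold for these libraries. The labels do not say that replicates are separate mice, so p-values may reflect technical spread alone. Members and lists were chosen with earlier results of these data known, so lists are described by counts and medians, without a set test. Values per library are given for members past the threshold, for the 3 largest fold changes in each direction and for pairs of related genes, and neighbouring genes are named if past the threshold. The library values of Hmgcs1, Mvk, Mvd, Acly, Fasn, Nsdhl and Scap, and the neighbours Mid1ip1, Aacs, Acss2, Nr1h2, Nr1h3, Mbtps1 and Mbtps2, lie outside this rule and were chosen after their values were seen. Positions came from GENCODE M21 (GRCm38), and promoters from RefSeq (GRCm38.p6). Similar transcripts were sought with blastn 2.17.0. Alternatives were other pseudocounts, filters, scalings, no trend, a replicate block and each library left out.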

Additional observations from a re-analysis of the deposited data

How the results depend on the processing

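Direction and call were kept by all 4 members that rose with a pseudocount of 0.1, a minimum mean of 5 RPKM and equal RPKM sums without globin, by 1 of the 4 with no filter, by 2 with libraries centred on their medians and by 3 without a variance trend. With no filter, 1191 genes were higher and 1149 lower, and the members that rose numbered 0 in the sterol branch, 0 in the fatty acid branch and 1 among the regulators. Centring gave 0 sterol enzymes and 1 regulator higher, and 2 sterol enzymes lower, Fdps and Sqle. Over all genes, 1789 were then higher and 2580 lower. The branch medians under centring were -0.10 (sterol) and -0.14 (fatty acid), against -0.063 over all genes. Without the trend 0 sterol enzymes rose, and 1976 of all genes were higher and 1896 lower. A minimum mean of 5 RPKM gave 1 sterol enzyme that fell, Sqle. Of the 8204 genes then tested, 1562 were higher and 1873 lower. Equal sums gave branch medians of 0.060 (sterol) and 0.021 (fatty acid), against 0.089 over all genes. Equal sums turned Cyp51 to 0.044, Dhcr7 to 0.028, Ebp to 0.076, Elovl1 to 0.031, Fads2 to 0.012, Mvk to 0.010 and Sc5d to 0.035. Centring turned Hmgcs1 to -0.011, Insig2 to -0.049 and Scap to -0.038. Leaving out each library gave 0 to 2362 genes higher and 1 to 2056 lower, 0 sterol enzymes higher and 0 to 1 lower, 0 to 1 fatty acid enzyme higher, 0 to 2 regulators higher, and medians of -0.067 to 0.061 (sterol), -0.087 to 0.030 (fatty acid) and -0.024 to 0.22 (regulators). Single genes then changed sign, over -0.30 to 0.0058 (Acat2), -0.13 to 0.039 (Cyp51), -0.30 to 0.19 (Dhcr7), -0.038 to 0.0012 (Ebp), -0.16 to 0.025 (Elovl1), -0.28 to 0.036 (Elovl6), -0.25 to 0.0082 (Fads1), -0.23 to 0.066 (Fads2), -0.055 to 0.17 (Hmgcs1), -0.19 to 0.22 (Insig2), -0.15 to 0.44 (Mvd), -0.40 to 0.25 (Mvk), -0.15 to 0.040 (Sc5d) and -0.081 to 0.14 (Scap). Same-numbered libraries deviated together with a correlation of 0.0545 and nothing in the labels pairs them. A replicate block gave 1871 genes higher and 1735 lower and kept all 4 members, with an adjusted p of 0.0637 for Acsl3, 0.0583 for Erlin1, 0.0589 for Hacd2, 0.0577 for Oxct1 and 0.0652 for Slc25a1. The cause of these changes was not tested. With 2 libraries a group and no counts, neither depth nor counting error can be given.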
